A study of Mus musculus with 6 samples.

Results

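Transcripts of 9 AP-1 and BATF factors (Fos, Fosb, Fosl2, Jun, Junb, Jund, Batf, Batf3 and Atf3) were counted by RNA sequencing in sorted splenic γδ T cells of mice. The genes were found by their symbols. All 9 had a row among the 19390 gene symbols of the deposited count table, and all 9 passed the filter on low counts that left 12810 genes for testing. The 6 libraries fell under 2 labels with 3 libraries each. WT was taken as Usf3 f/f, mice whose Usf3 alleles are flanked by loxP sites, and KO as Usf3 f/f; CD2-cre, mice that also carry a transgene expressing Cre recombinase in lymphoid cells. Both labels share the floxed alleles, the age of 6 weeks, the spleen and the sort, whereas CD2-cre was present under KO only, so the transgene and the deletion cannot be told apart. The floxed exons are not named in the labels, nor is it said that the 3 libraries of a label came from separate animals, so the p-values measure the spread between these libraries, which may be technical. Values of single libraries are given in the order of replicates 1, 2 and 3.

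AP-1 is a family of dimeric transcription factors whose subunits carry a basic DNA-binding region followed by a leucine zipper (bZIP). Jun proteins can pair with themselves or, more stably, with Fos proteins, which do not form stable pairs of their own. BATF proteins lack the activation domains of Fos, pair with Jun proteins, and in lymphocytes bind DNA together with IRF4 or IRF8. Fos, Fosb, Junb, Atf3 and, in many cells, Jun are immediate early genes, transcribed within minutes of antigen receptor, growth factor or stress signals that reach the MAP kinases, and their messenger RNAs are short-lived.

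Counts per library summed to between 34644862 and 35806402. Usf3, the gene named by the genotype, had 2499, 2527 and 2593 counts in WT-labelled and 2532, 2360 and 2348 in KO-labelled libraries. Its log2 fold change of -0.08 ± 0.04 (SE) missed the threshold of 0.05 (adjusted p = 0.261 from edgeR's quasi-likelihood test with Benjamini-Hochberg adjustment; two-sided exact permutation p = 0.2, with 0.1 the smallest p that 3 against 3 libraries allow). Such a count, taken over all exons, does not check the genotype, and groups are therefore referred to as WT-labelled and KO-labelled. Of the T cell markers looked for, all 9 had a row, and they summed to between 3995 and 4018 CPM (counts scaled to a common library size) in WT-labelled and between 3799 and 3929 in KO-labelled libraries, led by Thy1 and Lck. Of these, 4 were called lower and 0 higher (44.4%, beside 17.3% of all tested genes), namely Cd3g, Cd3d, Cd3e and Cd2, chosen after their values were seen, with log2 fold changes of -0.17, -0.12, -0.08 and -0.10 (edgeR adjusted p = 5.91e-05, 0.00287, 0.0364 and 0.0462). The γδ T cell receptor genes were not analysed here. Of the γδ-associated genes looked for, 3 had a row, and they summed to between 6.88 and 8.90 CPM in WT-labelled and between 5.32 and 5.64 in KO-labelled libraries. Of these, the Src-family kinase gene Blk fell from 3.10 ± 0.699 to 1.39 ± 0.170 CPM (SD, n = 3 each; edgeR adjusted p = 0.00133), and Sox13 was at 4.36 ± 0.692 and 3.23 ± 0.313 (adjusted p = 0.102). The third, Zbtb16, lay the other way, at 0.409 ± 0.204 and 0.863 ± 0.249 CPM with all KO-labelled libraries above the WT-labelled ones (adjusted p = 0.0997; chosen after its value was seen). Of the αβ-associated genes, Cd8a, which some γδ T cells also express, rose from 66.1 ± 0.527 to 86.9 ± 2.41 CPM (edgeR adjusted p = 7.51e-08), and Cd8b1 was at 18.1 ± 0.521 and 17.8 ± 0.496 (SD, n = 3 each). Cd4, chosen after its value was seen, was at 0.522 ± 0.230 and 0.463 ± 0.106. The part of these markers in the results on the AP-1 factors was not tested.

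Transcripts of 7 of the 9 factors were lower in KO-labelled cells, and those of the other 2 did not pass the test in either direction. Among the 7, the call of Batf was at the edge of the threshold (edgeR adjusted p = 0.0496) and passed in 4 of 16 alternatives. Atf3, Fos and Batf3 fell most, to near 50% of the WT-labelled level, Fosb and Fosl2 fell by 30.7% and 27.2%, and Junb and Batf fell by 15.1% and 11.7%. Jun and Jund were at 1.05 and 1.02 times their WT-labelled level, while Junb, also a Jun gene, was among the 7 lower. Beside the 7 lower and 0 higher factors, 10.1% of all tested genes were called lower and 7.23% higher (edgeR, adjusted p under 0.05). A fall of at least 1.5-fold was called in 3 factors, Atf3, Fos and Batf3, and in 1.74% of tested genes. The median log2 fold change was -0.46 over the 9 factors and 0.00 over the 12810 tested genes. In 7 factors all 3 KO-labelled libraries lay below all 3 WT-labelled ones, as in 16.7% of tested genes, and in Jun they lay above, as in 15.5%. In a bulk sample, fewer cells that express a gene and less RNA of it per cell cannot be told apart.

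**Figure D1:**
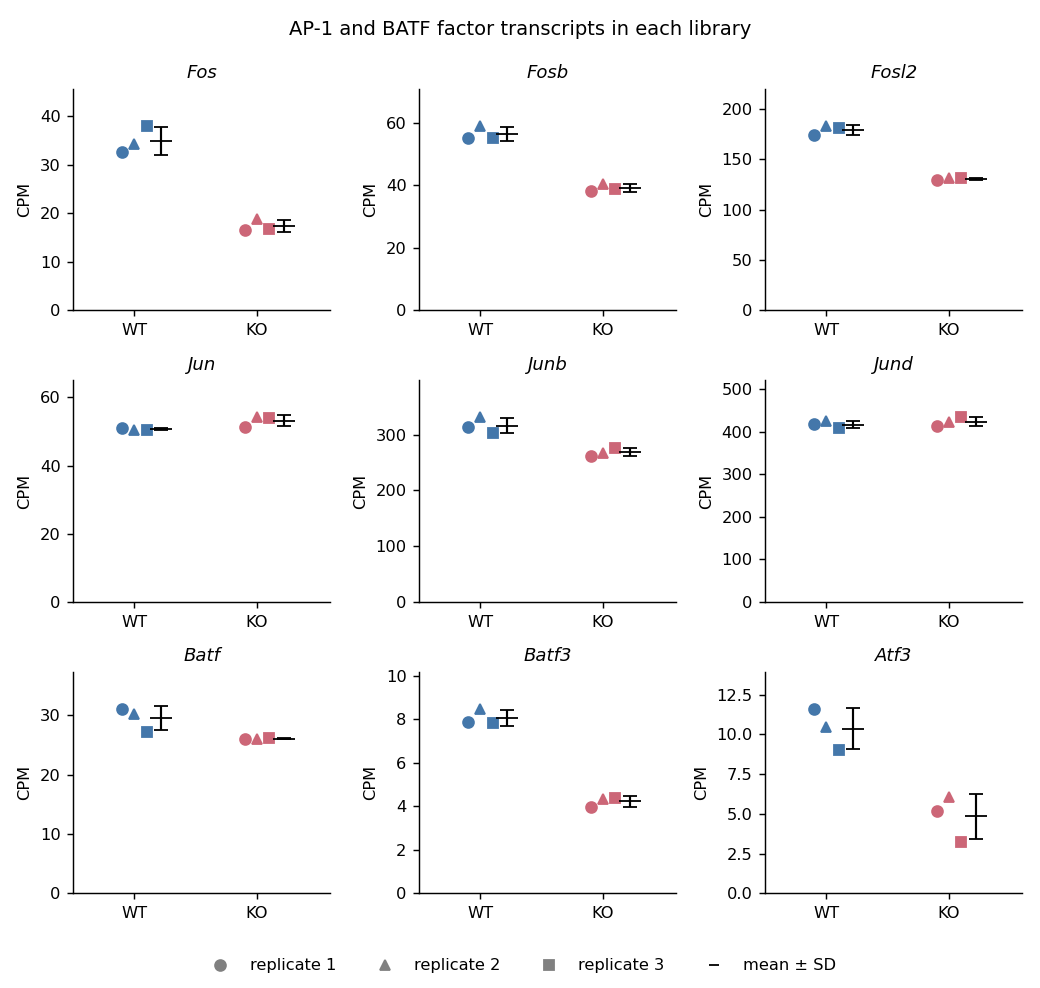
Level of each of the 9 factors in CPM (linear axis from 0) in every library, by label, with the symbol giving the replicate number and the bar the mean ± SD over 3 libraries. KO-labelled libraries lie below WT-labelled ones in Fos, Fosb, Fosl2, Junb, Batf, Batf3 and Atf3, lie above them in Jun, and overlap them in Jund.

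**Figure D2:**
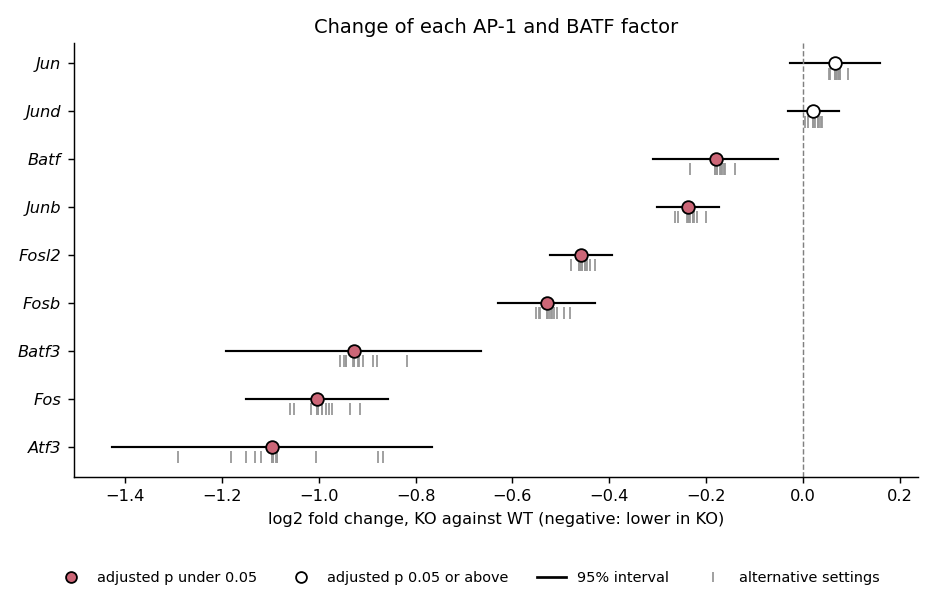
Log2 fold change of each factor, KO-labelled against WT-labelled, with its 95% interval from edgeR, and below it the values under 16 alternative settings as grey ticks. The factors run from Atf3 at -1.10 to Jun at 0.07, and no tick lies on the other side of 0 from its factor.

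The promoters of 4 factors are shown because they set Fos and Atf3, whose falls were the largest in the edgeR fit of all 6 libraries, beside Batf3, whose window holds the E-box that USF proteins are known to bind, and Jun, which did not pass the test. Each is the 250 bases before the RefSeq start of the gene in GRCm38.p6, 5′ to 3′ on the gene's strand. They lie at chr12:85473640-85473889 (plus strand), chr1:191183334-191183583 (minus strand), chr1:191098164-191098413 (plus strand) and chr4:95052223-95052472 (minus strand). Capitals mark, on either strand, TGACG, the first bases of the cyclic AMP response element that CREB and ATF proteins bind, and also the E-box CACGTG, the TATA box TATAAA and TGACATCA, an AP-1-like site.
Fos: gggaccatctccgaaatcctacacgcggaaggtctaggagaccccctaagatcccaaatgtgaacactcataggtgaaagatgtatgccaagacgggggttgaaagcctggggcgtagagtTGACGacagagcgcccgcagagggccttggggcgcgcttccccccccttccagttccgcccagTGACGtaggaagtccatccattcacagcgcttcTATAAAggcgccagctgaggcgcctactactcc
Atf3: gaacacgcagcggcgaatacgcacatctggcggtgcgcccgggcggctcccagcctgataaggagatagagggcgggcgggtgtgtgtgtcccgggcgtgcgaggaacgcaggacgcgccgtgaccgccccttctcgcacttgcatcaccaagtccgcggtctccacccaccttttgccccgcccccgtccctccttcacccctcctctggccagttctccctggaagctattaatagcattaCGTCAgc
Batf3: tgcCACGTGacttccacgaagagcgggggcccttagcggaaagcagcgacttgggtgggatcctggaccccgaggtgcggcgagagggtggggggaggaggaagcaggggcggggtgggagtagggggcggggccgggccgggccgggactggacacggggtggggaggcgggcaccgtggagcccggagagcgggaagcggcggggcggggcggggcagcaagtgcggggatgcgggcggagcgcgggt
Jun: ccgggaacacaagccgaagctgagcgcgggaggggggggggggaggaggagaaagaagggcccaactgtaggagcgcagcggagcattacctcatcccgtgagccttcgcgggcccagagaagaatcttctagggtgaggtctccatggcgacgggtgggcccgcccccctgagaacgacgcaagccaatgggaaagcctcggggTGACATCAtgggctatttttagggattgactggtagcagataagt

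All 9 factors had a window in the table, which holds 32851 windows of this length, and both strands were searched. TGACG was in the windows of Fos, Fosb, Junb, Batf and Atf3, beside 17.8% of all windows, and the longer TGACGT, which overlaps it, in those of Fos, Batf and Atf3, beside 6.47%. In Fos the 2 matches began 129 and 66 bases before the start, with TATAAA beginning 33 bases before it. CACGTG was in the Batf3 window only of the 9, beginning 247 bases before the start and followed by AC, beside 6.02% of all windows for CACGTG and 1.85% for CACGTGAC. TGACATCA was in the Jun window, beginning 45 bases before the start, beside 2.93%. The complete cyclic AMP element (TGACGTCA), the usual AP-1 site (TGANTCA) and the CArG box of serum response factor were in 0 of the 9 windows and in 1.55%, 6.75% and 1.47% of all. GGGCGG was in 7 of 9 windows, those of Fos, Fosb, Fosl2, Jun, Batf, Batf3 and Atf3, beside 32.7%, and CCAAT in those of Jun and Junb, beside 33.8%. The short form TGACG, the longer form TGACGT and the site TGACATCA were added to the search after the windows had been seen. A match describes letters in a window and is not a site shown to be bound. Bases outside the windows were not searched. A motif without a match, such as the CArG box in Fos, may therefore lie further upstream, and its absence from the promoter is not shown.

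Fos, the founding member of the Fos family and the classic immediate early gene, stood at 32.5, 34.1 and 38.0 CPM in WT-labelled and at 16.6, 18.7 and 16.8 in KO-labelled libraries. Every KO-labelled library was below 60% of the lowest WT-labelled one. Its mean went from 34.9 ± 2.82 to 17.4 ± 1.16 CPM (SD, n = 3 each), a fall of 50.1% (95% interval 44.8% to 55.0%). The log2 fold change was -1.004 ± 0.07 (SE; edgeR adjusted p = 2.60e-10).

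Fosb, whose product also forms activating dimers with Jun proteins, had 55.2, 59.1 and 55.0 CPM in WT-labelled and 38.0, 40.4 and 38.9 in KO-labelled libraries. The labels did not overlap, and the libraries of a label lay close together. Its log2 fold change was -0.53 ± 0.05 (SE; edgeR adjusted p = 1.93e-08), a fall of 30.7% (95% interval 25.7% to 35.4%), which does not reach the interval of Fos.

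Fosl2 encodes FRA2, a Fos protein without the strong activation domain of FOS. It had 174, 184 and 181 CPM in WT-labelled and 129, 131 and 132 in KO-labelled libraries. The 3 KO-labelled libraries differed by less than the distance of any of them from the lowest WT-labelled one. This gave a log2 fold change of -0.46 ± 0.03 (SE; edgeR adjusted p = 1.65e-10), a fall of 27.2% (95% interval 23.9% to 30.4%), so that all 3 Fos family genes among the 9 factors were lower.

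Atf3, a stress-inducible factor that can repress or, with Jun, activate its targets, had 11.6, 10.4 and 9.05 CPM in WT-labelled and 5.21, 6.06 and 3.25 in KO-labelled libraries. All KO-labelled libraries were below the WT-labelled ones, with KO replicate 3 lowest of the 6. With all 6 libraries it had the most negative log2 fold change of the 9 in the edgeR fit, -1.10 ± 0.16 (SE; edgeR adjusted p = 2.00e-05), a fall of 53.2% (95% interval 41.2% to 62.8%). The spread was wide for its depth, since the KO-labelled libraries had a coefficient of variation of 29.8% where counting error alone gives 7.65% at their mean of 171 counts. Without KO replicate 3 the log2 fold change was -0.88 (adjusted p = 9.47e-07), less negative than those of Fos (-0.98) and Batf3 (-0.96), and Fos was also the lowest without WT replicate 1 (-1.05 against -1.01) and on log2(FPKM + 1) (-0.91 against -0.87).

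Batf3, a BATF protein best known for the development of cross-presenting dendritic cells and also made by activated T cells, had 7.87, 8.48 and 7.85 CPM in WT-labelled and 3.95, 4.36 and 4.40 in KO-labelled libraries. The labels were well apart, although Batf3 had the fewest counts of the 9, 284 and 149 per library on average. The log2 fold change was -0.93 ± 0.13 (SE; edgeR adjusted p = 8.82e-06), a fall of 47.4% (95% interval 36.9% to 56.2%). The 3 dendritic cell markers with a row, led by Zbtb46 and Xcr1, summed to between 0.683 and 1.38 CPM in WT-labelled and between 1.45 and 1.91 in KO-labelled libraries. Neither Zbtb46 nor Xcr1 passed the test (edgeR adjusted p = 0.555 and 0.0834).

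Batf, which drives effector programmes of T cells with IRF4 and Jun proteins, had 31.1, 30.3 and 27.2 CPM in WT-labelled and 26.1, 26.0 and 26.1 in KO-labelled libraries. The labels did not overlap, but WT replicate 3 lay close to the KO-labelled libraries. The log2 fold change was -0.18 ± 0.06 (SE; edgeR adjusted p = 0.0496), a fall of 11.7% (95% interval 3.46% to 19.3%). This call was at the edge of the threshold: the adjusted p ran from 0.0193 to 0.225 over 16 alternatives and passed in 4 of them. It was lost by DESeq2 (adjusted p = 0.0934) and without WT replicate 1 or 2 (adjusted p = 0.225 and 0.165) or KO replicate 1, 2 or 3 (adjusted p = 0.115, 0.0878 and 0.0658). The other 6 lower factors passed in all 16 alternatives.

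Junb, a Jun protein with weaker activation than JUN and a partner of BATF, had 315, 331 and 304 CPM in WT-labelled and 262, 267 and 276 in KO-labelled libraries. The labels did not overlap, and the difference between the means, 317 ± 14.0 against 269 ± 7.28 CPM (SD, n = 3 each), was larger than either spread. For Junb this was a log2 fold change of -0.24 ± 0.03 (SE; edgeR adjusted p = 4.50e-06), a fall of 15.1% (95% interval 11.3% to 18.8%). In the GENCODE annotation of GRCm38 Junb overlaps Prdx2, a peroxiredoxin gene on the opposite strand. The strand setting of the counting is not given in the sources read here, so reads of the 2 genes may not be told apart. Prdx2 rose, from 95.2 ± 0.515 to 106 ± 0.939 CPM (SD, n = 3 per label; log2 fold change 0.16; edgeR adjusted p = 0.00239).

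Jun, the namesake subunit and the most strongly activating Jun protein, had 51.1, 50.5 and 50.6 CPM in WT-labelled and 51.3, 54.1 and 53.9 in KO-labelled libraries. All KO-labelled libraries were above the WT-labelled ones, KO replicate 1 narrowly. The log2 fold change of 0.07 ± 0.04 (SE) did not pass (edgeR adjusted p = 0.352), and its 95% interval, from 0.98 to 1.12 times the WT-labelled level, lay above the intervals of all 7 lower factors. Junos, an antisense gene that overlaps Jun, had at most 94 counts in a library and a log2 fold change of -0.03 (edgeR adjusted p = 0.960).

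Jund, the Jun protein that most cells make constitutively, had 417, 424 and 408 CPM in WT-labelled and 413, 423 and 434 in KO-labelled libraries. The labels overlapped. Jund had a log2 fold change of 0.02 ± 0.03 (SE; edgeR adjusted p = 0.624), with a 95% interval from 0.98 to 1.05 times the WT-labelled level. Jund and Atf3 each overlap 1 gene of the opposite strand in the same annotation, neither with a row in the count table, and Fos, Fosb, Fosl2, Batf and Batf3 overlap 0.

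Levels of different genes were compared per length, as FPKM (fragments scaled by transcript length and library total), which the authors deposited. In WT-labelled libraries Junb came first at 171 ± 7.79 FPKM, followed by Jund at 144 ± 3.09, Batf at 32.6 ± 2.34, Fosl2 at 25.3 ± 0.630, Fos at 16.5 ± 1.28, Jun at 15.8 ± 0.147, Fosb at 14.9 ± 0.604, Batf3 at 11.3 ± 0.503 and Atf3 at 5.22 ± 0.661 (SD, n = 3 each). Only Fos and Jun overlapped among neighbours in that order. Junb was thus above 97.2% of tested genes in level, and Atf3 above 45.5%.

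In KO-labelled libraries the order was Jund at 147 ± 3.53 FPKM, Junb at 146 ± 3.92, Batf at 28.9 ± 0.141, Fosl2 at 18.5 ± 0.140, Jun at 16.7 ± 0.470, Fosb at 10.4 ± 0.282, Fos at 8.26 ± 0.530, Batf3 at 5.97 ± 0.336 and Atf3 at 2.45 ± 0.727 (SD, n = 3 each). Jund and Junb overlapped there, and no other neighbours did. Fos went from the fifth place to the seventh, below Jun and Fosb, and Atf3 from above 45.5% to above 33.5% of tested genes.

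**Figure D3:**
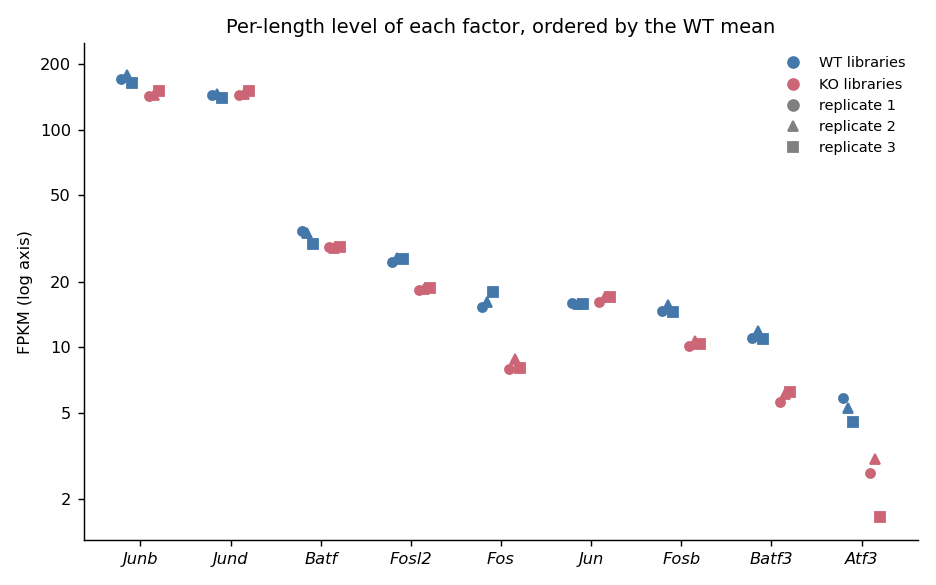
Per-length level of each factor in FPKM on a log axis, 1 point per library, with colour giving the label and shape the replicate number, ordered by the WT-labelled mean. Junb and Jund lie above 140 FPKM in every library, and the other 7 factors below 35.

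Summed over the 9 factors the level was 437 ± 13.2 FPKM in WT-labelled and 385 ± 7.81 in KO-labelled libraries (SD, n = 3 each), and Junb with Jund made up 72.2% ± 0.290 and 76.3% ± 0.526 of it. The 3 Fos family genes summed to 54.6, 57.5 and 57.8 FPKM in WT-labelled and to 36.4, 38.1 and 37.0 in KO-labelled libraries. The 3 Jun family genes summed to 332, 342 and 321 FPKM in WT-labelled and to 304, 309 and 319 in KO-labelled libraries, so that the highest KO-labelled sum lay just under the lowest WT-labelled one. The sum of Fos family transcripts was therefore a smaller part of the Jun family sum in KO-labelled libraries, 0.171 ± 0.00821 in WT-labelled and 0.120 ± 0.00370 in KO-labelled ones, with no overlap between libraries.

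Ratios of single factors within a library do not depend on the scaling between libraries. Fos to Jun was 1.04 ± 0.0885 in WT-labelled and 0.494 ± 0.0260 in KO-labelled libraries (SD, n = 3 each), and Junb to Jund 1.19 ± 0.0298 and 0.993 ± 0.00387. Batf to Batf3 went the other way, from 2.89 ± 0.202 to 4.86 ± 0.289, since Batf3 was lower by more than Batf. Within the Fos family, Fosb to Fos was 0.908 ± 0.0867 and 1.26 ± 0.0478, and Fosl2 to Fos 1.54 ± 0.103 and 2.25 ± 0.135. The labels overlapped in none of these 5 ratios, which are given as a description with no test.

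**Figure D4:**
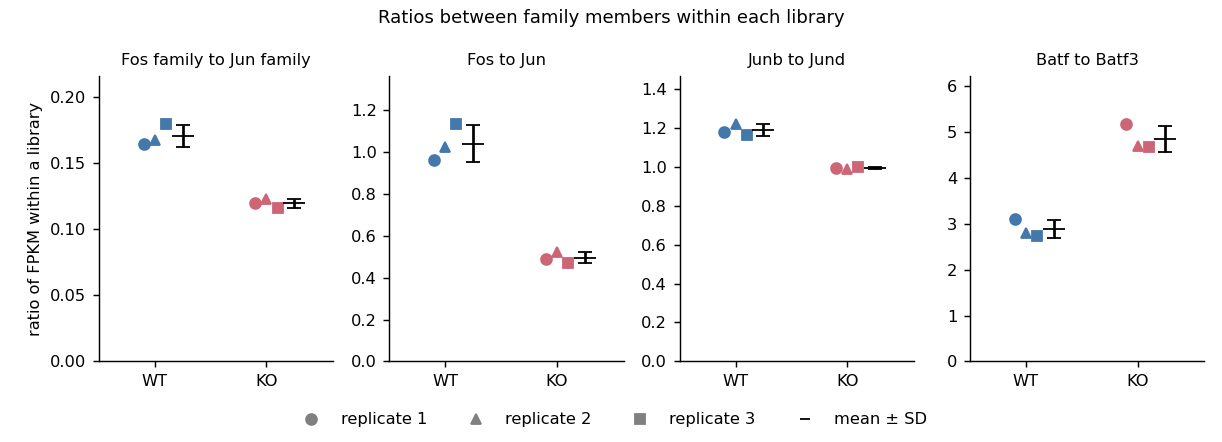
Ratio of FPKM between family sums or between single factors within each library (linear axes from 0), with symbols for replicate numbers and bars for mean ± SD over 3 libraries. The Fos family to Jun family, Fos to Jun and Junb to Jund ratios are lower in every KO-labelled library, and Batf to Batf3 is higher.

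From a list of 10 others in the AP-1 branch of the bZIP family, 8 genes were tested. Of these, 1 was lower and 0 were higher (12.5%, beside 17.3% of all tested genes), with a median log2 fold change of -0.09. Maf, a large MAF factor of interleukin-10 and interleukin-17 producing T cells, fell from 12.3 ± 1.16 to 7.98 ± 0.896 CPM (SD, n = 3 per label; log2 fold change -0.62 ± 0.11, SE; edgeR adjusted p = 0.000170). Fosl1, the remaining Fos family gene and chosen after its value was seen, was at 5.50 ± 0.626 and 4.43 ± 0.819 CPM with a log2 fold change of -0.31 (adjusted p = 0.199), and Atf7, an ATF2-like factor, had one of -0.11 (adjusted p = 0.128). Without KO replicate 3 Fosl1 passed (edgeR adjusted p = 0.0491), and without WT replicate 2 Atf7 did (edgeR adjusted p = 0.0483), which made the count of lower genes 2 in each case. The small MAF gene Mafk, also chosen after its value was seen, was at 156 ± 1.94 and 156 ± 3.74 CPM.

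Among 23 tested genes of the wider bZIP family 5 were lower and 3 higher (34.8%, beside 17.3% of all tested genes). The median of the list was -0.03. Nfil3, a repressor induced by cytokines and needed for NK cell development, rose by 0.42 ± 0.04 on the log2 scale (SE; edgeR adjusted p = 6.62e-08). Atf6, a sensor of protein folding stress in the endoplasmic reticulum, fell by 0.30 ± 0.04 (adjusted p = 1.76e-06), and Nfe2l2 (NRF2), which drives antioxidant genes, by 0.27 ± 0.05 (adjusted p = 0.000884). The lower count was 3 without KO replicate 1, WT replicate 1 or WT replicate 3, and the higher count 1 without KO replicate 1 or WT replicate 1.

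The kinases that carry signals to AP-1 were mostly not called. Of 32 tested genes of the MAP kinase route 3 were lower and 3 higher, 18.8% in all beside 17.3% of all tested genes, with a median of 0.01. Rps6ka1, the kinase RSK1 that acts below ERK, fell by 0.12 ± 0.03 on the log2 scale (SE; edgeR adjusted p = 0.00265). Mapk3 and Map2k1, which encode a form of ERK and of its activator MEK and were chosen after their values were seen, had log2 fold changes of 0.04 (95% interval -0.05 to 0.13) and 0.02 (-0.06 to 0.10). The lower count was 1 without WT replicate 1, and the higher count 0 without WT replicate 3 and 1 without KO replicate 1. Serum response factor and its partners switch on Fos and Egr1 below ERK. Of 6 of their genes, 2 were lower and 0 higher (33.3%, beside 17.3% of all tested genes). Elk4, a ternary complex factor, fell by 0.25 ± 0.05 (SE; edgeR adjusted p = 0.000328), and Srf, chosen after its value was seen, had a log2 fold change of -0.09 (adjusted p = 0.104). Without WT replicate 1, WT replicate 3 or KO replicate 1 the count of lower genes was 1.

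Factors that bind DNA jointly with AP-1 or BATF moved in both directions. Of 8, 2 were higher and 2 lower (50%, beside 17.3% of all tested genes). Irf4, the partner of BATF and Jun proteins, fell from 104 ± 1.48 to 83.1 ± 5.32 CPM (SD, n = 3 per label; log2 fold change -0.33 ± 0.04, SE; edgeR adjusted p = 3.79e-06). Irf8, which can take its place beside BATF proteins, and Nfatc2, an NFAT protein that binds with Fos and Jun, had log2 fold changes of 0.04 (95% interval -0.02 to 0.10) and 0.00 (-0.07 to 0.06), and both were chosen after their values were seen. Nfatc1, another NFAT gene, rose by 0.11 ± 0.03 on the log2 scale (SE; edgeR adjusted p = 0.0156), a call lost in 3 of 16 alternatives. Ets1 rose from 405 ± 7.13 to 500 ± 9.20 CPM (SD, n = 3 per label; log2 fold change 0.30 ± 0.02, SE; edgeR adjusted p = 2.10e-09). The lower count was 1 without KO replicate 1, KO replicate 2, WT replicate 2 or WT replicate 3, and the higher count 1 without KO replicate 2, WT replicate 1 or WT replicate 3. Genes that control AP-1 proteins include those of ubiquitin ligase subunits that mark Jun for degradation. Of 7 tested, 1 was higher and 0 lower (14.3%, beside 17.3% of all tested genes). That gene, Cop1, changed by 0.18 ± 0.05 on the log2 scale (SE; edgeR adjusted p = 0.0168), a call lost without WT replicate 1, WT replicate 3 or KO replicate 3 (adjusted p = 0.0764, 0.0678 and 0.0977) and in both limma fits on log2 FPKM (0.1107 and 0.1096).

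Genes known as targets of AP-1, NFAT or BATF in T cells were called in both directions, 10 lower and 4 higher of 18 tested (77.8%, beside 17.3% of all tested genes), with a median of -0.20. Cd69, an early activation antigen, fell from 347 ± 8.37 to 250.4 ± 5.58 CPM and Ctla4, an inhibitory receptor, from 128 ± 3.26 to 83.9 ± 5.89 (SD, n = 3 each; edgeR adjusted p = 8.91e-12 and 2.63e-10). The chemokine gene Ccl3 had a log2 fold change of -0.62 ± 0.04, and Xcl1, which encodes another, rose by 0.49 ± 0.03 (SE; edgeR adjusted p = 1.77e-10 and 1.66e-11). Of cytokine genes chosen after their values were seen, Tnf fell by 0.68 and Il10 by 0.70 on the log2 scale, while Ifng rose by 0.25 and Il13 by 1.97 (edgeR adjusted p = 4.51e-09, 7.71e-09, 5.55e-05 and 1.49e-08).

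**Figure D5:**
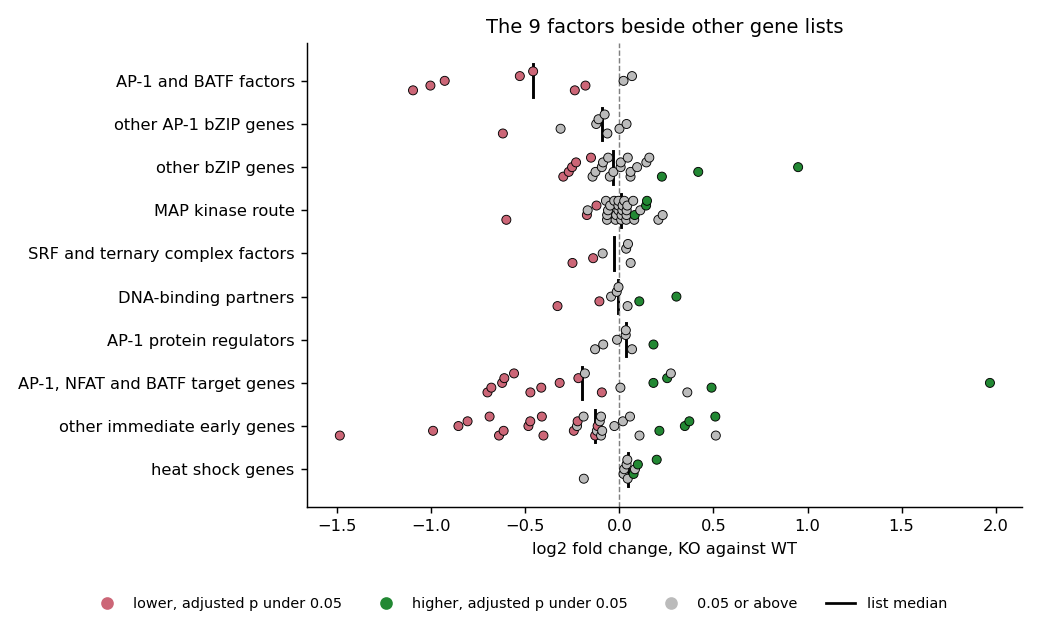
Log2 fold change of every tested gene in the AP-1 and BATF factors and in 9 other lists, with the list median as a black bar and colours for genes lower, higher or not called by edgeR. The factors have a median of -0.46, and the 9 other lists have medians between -0.20 and 0.04.

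Other immediate early genes share fast induction with Fos, Fosb, Junb and Atf3. Of 31 tested, 15 were lower and 4 higher (61.3%, beside 17.3% of all tested genes), with a median of -0.13. Egr1 went from 711 ± 14.8 to 358 ± 3.86 CPM and Nr4a1 from 106 ± 2.24 to 37.9 ± 2.29 (SD, n = 3 each), log2 fold changes of -0.99 and -1.49 beside -1.004 in Fos. Ier2 and Myc fell by 0.64 and 0.62 on the log2 scale (edgeR adjusted p = 5.21e-13 and 1.93e-13). Within families the log2 fold change was -0.86 in Egr2 and -0.09 in Egr3, and 0.02 and -0.10 in Nr4a2 and Nr4a3, while the phosphatase gene Dusp1 rose by 0.51 (edgeR adjusted p = 8.48e-10, 0.375, 0.853, 0.358 and 1.36e-08 in that order; all 5 chosen after their values were seen). Immediate early genes also respond to the handling of cells. Heat shock genes are another set that does. Of 10 tested, 3 were higher and 0 lower (30%, beside 17.3% of all tested genes), with a median of 0.04. A negative log2 fold change was found in 1 of the 10. Hsph1, a chaperone gene, rose by 0.20 ± 0.03 (SE; edgeR adjusted p = 8.51e-05). Dnaja1 and Hspd1 rose by 0.10 and 0.08 (edgeR adjusted p = 0.00749 and 0.0365), and the call of Hspd1 was lost in 6 of 16 alternatives. Of heat shock genes chosen after their values were seen, Hspa1a and Hspb1 had too few counts to be tested. Hspa1b was at 0.579 ± 0.190 and 0.596 ± 0.0545 CPM (SD, n = 3 each; edgeR adjusted p = 0.963). The part of handling in the lower AP-1 transcripts was not tested.

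Markers of other cell types were summed in each library. The 5 monocyte and macrophage markers with a row summed to between 7.17 and 9.92 CPM in WT-labelled and between 6.00 and 6.71 in KO-labelled libraries, nearly all of it Cd68, which T cells also express at a low level, at 8.36 ± 1.15 and 6.20 ± 0.400 CPM (SD, n = 3 each), with Lyz2 at 0.134 ± 0.232 and 0.0476 ± 0.0335. The neutrophil markers S100a8 and Cxcr2 summed to at most 0.0569 CPM in any library. The 6 B and plasma cell markers summed to between 5.92 and 6.64 CPM in WT-labelled and between 5.26 and 7.13 in KO-labelled libraries, of which Cd79b made up 5.65 ± 0.194 and 5.24 ± 1.10. The 3 NK cell markers summed to between 77.8 and 83.8 CPM in WT-labelled and between 78.0 and 82.8 in KO-labelled libraries. Klrb1c, at 73.8 ± 3.26 and 76.3 ± 2.63 CPM (SD, n = 3 each), made up most of it. Per length Klrb1c was at 28.9 ± 1.21 and 30.1 ± 1.12 FPKM, above Fos at 16.5 ± 1.28 and 8.26 ± 0.530. Of the other NK cell markers, Ncr1, chosen after its value was seen, fell from 1.85 ± 0.470 to 0.965 ± 0.265 CPM (edgeR adjusted p = 0.0398), and Tyrobp was at 4.71 ± 0.229 and 3.89 ± 0.176 (adjusted p = 0.247). The monocyte sum and Ncr1 were thus lower where the factors were lower, and Cd68 passed the test (edgeR adjusted p = 0.0179), though not without WT replicate 2 or WT replicate 3, where the adjusted p was 0.130 and 0.0734. The part of these markers in the lower levels of the AP-1 factors was not tested.

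Over the 6 libraries, the 3 tested genes of at least 2 CPM whose log2 CPM followed Atf3 most closely were Mturn, Oasl2 and Cmah, with root mean square differences of 0.149, 0.152 and 0.218 on the log2 scale after each gene was centred on its mean. Their own log2 fold changes were -1.07, -0.97 and -0.73. The difference between the labels is part of this distance, so falls like that of Atf3 follow from the selection and are no separate result.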

How the data were processed

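Per the labels' protocols, RNA was taken up in TRIzol and libraries were made with a VAHTS kit. The submitters' processing notes name fastp, HISAT2, HTSeq and the build GRCm39; no version, annotation or strand setting is given there. The authors deposited whole-number counts per gene symbol and FPKM values, 1 column per library; dividing by the deposited column totals showed that the FPKM of each factor are its counts over 1 fixed length. The test was that of edgeR 4.0.16 under R 4.3.3 (TMM, filterByExpr, glmQLFit and glmQLFTest, no covariate; biological coefficient of variation 4.16%), with Benjamini-Hochberg adjustment over 12810 genes and a threshold of 0.05. CPM use TMM-scaled library sizes, each standard error was derived from the log2 fold change and its F statistic, and 95% intervals come from that fit. The code was tested on simulated data. At this depth counting alone would spread WT-labelled libraries by a coefficient of variation of 0.826% (Jund) to 5.94% (Batf3), and the observed spread of most factors was wider. No 2 libraries under a label agreed within sampling noise, as chi-square per degree of freedom was 3.26 to 7.19. The factors and all gene lists were chosen with earlier results of these data known. Named genes were, from each list, the genes past the threshold, ordered by p and at most 4, or else the leading 2, and from marker lists the 2 most abundant. Crem, Map2k3, Mapk12, Sos1, Elk3, Runx3 and Fbxw7 met this rule and enter only the counts of their lists. Other settings tried were DESeq2 1.42.0, limma-voom, scaling by RLE, upper quartile or total count, limma-trend on log2 FPKM (limma 3.58.1; pseudocounts 0.1 and 1, mean FPKM at least 1), no filter, at least 1 CPM in 3 libraries, a threshold of 0.01, the replicate block, and each library left out. Promoter sequences are from RefSeq, GRCm38.p6, and overlapping genes from GENCODE for GRCm38; neither is the build of the counts.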

Additional observations from a re-analysis of the deposited data

How the results depend on the processing

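Of the 9 factors, 8 kept their direction and their side of the threshold in all 16 alternatives; Batf kept its direction and passed in 4. The number of lower factors was 6 or 7 in every alternative and with a threshold of 0.01, and the number of higher factors 0. Over the alternatives the log2 fold change ran from -1.06 to -0.91 in Fos, -0.55 to -0.48 in Fosb, -0.48 to -0.43 in Fosl2, -0.26 to -0.20 in Junb, -0.23 to -0.14 in Batf, -0.96 to -0.82 in Batf3 and -1.29 to -0.87 in Atf3, and from 0.05 to 0.09 in Jun and 0.00 to 0.04 in Jund. With a threshold of 0.01 the count of higher genes over all tested went from 926 to 520, since that threshold is stricter. Upper-quartile scaling called 5 heat shock genes higher in place of 3, and 1091 of all tested genes higher in place of 926. With it the median log2 fold change of all tested genes was 0.012, beside 0.001 with TMM. The cause was not tested. The median log2 fold change of all genes stayed between -0.002 and 0.013 over the alternatives. No effect shared by replicate number was seen: same-numbered deviations from the label means correlated at -0.03, -0.04 and -0.13, across genes. WT replicate 3, for one, correlated best with KO replicate 2. With 3 libraries a label this cannot tell whether libraries were paired, which the labels do not state. With the replicate block 1177 genes were lower and 792 higher in place of 1293 and 926, and among the factors the Batf call alone was lost (adjusted p = 0.0712). Batf was also above 0.05 when scaled by RLE (adjusted p = 0.0518), upper quartile (0.0629) or total count (0.0637), by DESeq2 (0.0934) or limma-voom (0.0582), and without the filter (0.0510). The share of Junb with Jund in the summed level is a ratio within a library, which no scaling between libraries can move. Depth limits Batf3 and Atf3 most, with 149 and 171 counts per KO-labelled library on average.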

Other observations

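The spread between libraries of a label, set beside counting error, differed among the factors. The coefficient of variation of Batf over the 3 KO-labelled libraries was 0.280%, where counting error alone gives 3.30%, and that of Jun over the 3 WT-labelled libraries was 0.669%, where counting error gives 2.37%. Fos varied by 8.09% in WT-labelled libraries, beside 2.86% from counting, and Junb by 4.43%, beside 0.948%. With 3 libraries a label, such coefficients are themselves imprecise, and they were not tested against each other.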
